A study of Mus musculus with 4 samples.

Results

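Chemokines and interleukin receptor subunits were examined in endothelial cells (ECs) sorted from the dura mater and from the brain parenchyma. The members were the entries of the count tables whose gene symbol starts with Ccl or Cxcl and a digit, is Cx3cl1, or starts with Il and a digit and then holds a lower-case r, and they numbered 83 of 23282 entries. The 83 entries carried 79 symbols, because Ccl19, Ccl21a and Ccl21b stood on more than 1 line, and the 4 additional lines held 0 counts in every library. There were 42 chemokine entries and 41 interleukin receptor entries, and the latter include Il1rn, which matches the symbol rule but encodes a secreted antagonist and not a receptor. Both groups of ECs came from C57BL/6J mice at 8 weeks of age, with no allele or treatment named in the labels, and each group held 2 libraries. According to the study's methods, both tissues were digested with enzymes, only brain ECs were enriched beforehand, on magnetic beads for CD31, and live single cells were sorted by flow cytometry after staining for CD31, the leukocyte marker CD45 and the red cell marker TER-119. The gate that defined ECs is not spelled out there. The mice were male, and the number of mice behind a library is not given in the sources used here, so the spread between libraries may be technical, and the step on beads cannot be told apart from the tissue. The comparison asks how the chemokine output and cytokine sensing of dura mater ECs differ from those of brain ECs.

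Chemokines are small secreted proteins that guide leukocytes by binding receptors coupled to G proteins, and they are named CC, CXC or CX3C after the spacing of their first cysteines. ECs present them on their luminal face, where they arrest rolling leukocytes, and CXCL12 also acts on ECs themselves during vessel growth. Interleukin receptors are mostly pairs of a ligand-binding subunit and a shared signalling subunit, which act through JAK kinases and STAT factors, or, for the IL-1 family, through the adaptor MyD88.

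The libraries held 13518973 to 16096203 counts, and a pair of values for a tissue gives replicate 1 and then replicate 2. Of 10 endothelial markers, 10 had at least 64 counts in every library, and their summed level was 10205 and 12690 CPM (counts scaled to library size with TMM factors) in brain ECs against 8053 and 10407 in dura mater ECs. The leukocyte list summed to 95.7 and 28.5 CPM in brain ECs and to 18.6 and 78.8 in dura mater ECs, and Ptprc, which encodes CD45, had 1 to 4 counts in each library, while Laptm5 reached 1377 counts in brain replicate 1 and Lcp1 1103 in dura mater replicate 2. Of 9 T, B and NK cell markers in the files, 8 were at 0 in every library. Macrophage and microglia markers summed to 51.9 and 112 CPM against 88.7 and 40.5, with Cd163 and P2ry12 at 0 throughout. Of 4 tested genes of that list, 1 had a log2 fold change above 0 and 3 below. The former, Cd68, had 4 and 3 counts in brain against 550 and 441 in dura mater. Csf1r had 4 and 646 against 28 and 9, C1qa 436 and 1 against 2 and 25, and Tmem119 2 and 1 against 287 and 0. Neutrophil markers summed to at most 3.25 CPM, platelet markers to 111 and 0.302 against 121 and 17.0, and mural cell markers to 693 and 1178 against 1158 and 681. Summed levels of other lists differed between the tissues without overlap: fibroblast markers were at 7.38 and 50.9 CPM in brain against 402 and 354 in dura mater, with Pdgfra at 0 or 1 count in each library, astrocyte markers at 51.8 and 8.24 against 437 and 161, with Aqp4 at 0 throughout, lymphatic endothelial markers at 123 and 145 against 367 and 438, erythroid genes at 18013 and 25692 against 1496 and 762, and genes of the immediate-early response to tissue handling at 5208 and 5195 against 27212 and 30826. The part of these cells or responses in the results was not tested. In these pooled cells, fewer cells of a type and less RNA per cell cannot be told apart.

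Of the 83 entries, 30 had 0 counts in every library, 13 reached at most 7 counts, 6 reached 8 to 63, and 34 had 64 or more counts in at least 1 library. The entries at 0 included the receptor genes Il18r1, Il1rl1, Il2rb, Il5ra, Il9r, Il12rb1, Il23r and Il17re, and the chemokines Ccl4, Ccl7, Ccl20 and Ccl28. A level of 0 counts allows up to 3 counts, or 0.184 to 0.227 CPM per library, for counting error only. At 64 or more counts there were 14 members in each brain library, 25 in dura mater replicate 1 and 29 in dura mater replicate 2. Replicates often disagreed: of the 34 members, 15 had 64 or more counts in 1 library of a tissue and at most 7 in the other, a pattern held by 44.8% of all genes that reach 64 counts in any library. Of the same 34, 6 (Ccl21a, Ccl21b, Ccl21c, Cxcl10, Il13ra2 and Il6ra) had 64 or more counts in both dura mater libraries and at most 7 in both brain libraries, and 0 had the reverse, against 6.89% and 0.425% of those genes. The filter on low counts kept 30 of the 83 members for the test, and a member that passed through its dura mater counts alone had to differ, so counts over the tested members are descriptions.

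**Figure D1:**
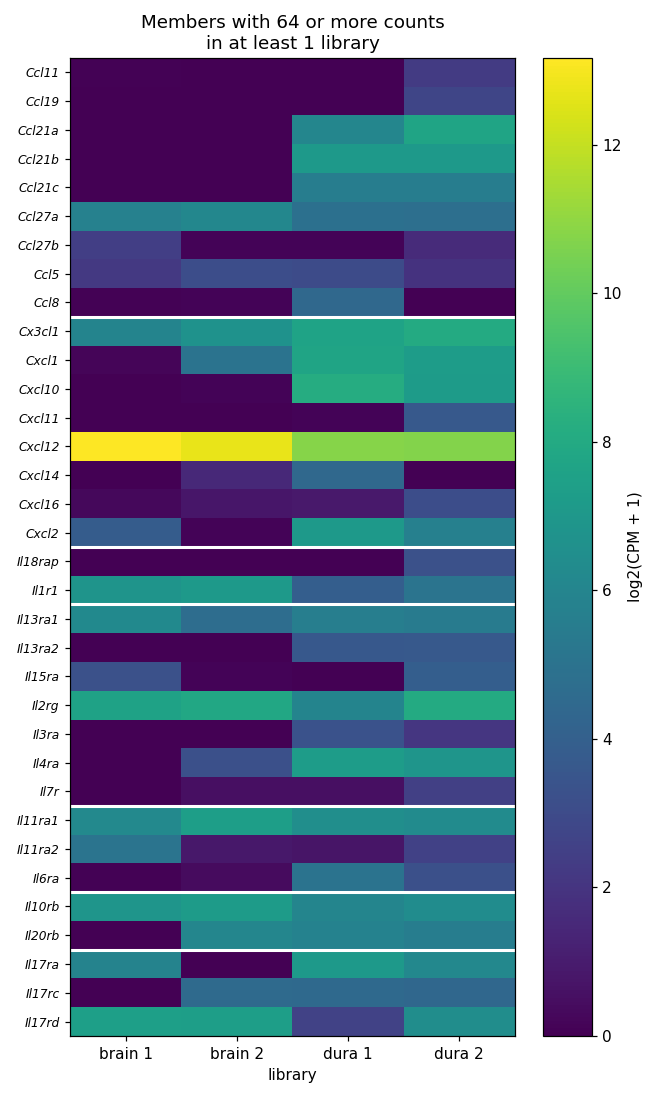
Level of the 34 members with at least 64 counts in 1 or more libraries, as log2(CPM + 1) by color, with 1 column per library and white lines between families. Each row is to be read across libraries: Ccl21a, Ccl21b, Ccl21c, Cxcl10, Il13ra2 and Il6ra are near 0 in both brain libraries and counted in both dura mater libraries, while Cxcl12 and Il1r1 are higher in both brain libraries.

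Of the 30 members tested, Cxcl10 was higher and Cxcl12 lower in dura mater ECs at an adjusted p under 0.05 in edgeR's quasi-likelihood test, and the other 28 did not pass. Among all 9347 genes tested, 0.610% passed, 0.428% as higher and 0.182% as lower. At an unadjusted p under 0.05, 5 members were higher (Cxcl10, Ccl21a, Ccl21b, Ccl21c and Cx3cl1) and 1 lower (Cxcl12), against 7.04% and 2.97% of all genes tested. In 13 members both dura mater libraries lay above both brain libraries, and in 5 both lay below. Over all genes tested, 26.2% lay above and 16.9% below. The log2 fold change was above 0 for 17 of the 30 members and for 49.8% of all genes tested. The median log2 fold change of dura mater over brain was 0.80 for the members tested, 2.81 for the 15 chemokines and 0.65 for the 15 receptor entries, against −0.01 over all genes tested. The chemokine families differed. The median was −0.35 for the 8 CC chemokines, of which 3, the Ccl21 copies, lay above 0 and 5 below. For the 7 CXC and CX3C chemokines it was 3.32, with 6 above 0 and 1 below. Calls depended on the fit. DESeq2 called 6 members, adding Ccl21a, Ccl21b, Ccl21c and Il4ra, where it called 9.02% of all genes. The newer dispersion estimate also called 6, with Cxcl1 in place of Ccl21c (3.27% of all genes), the fit without a filter 5 (2.39%), a replicate block 4 (2.40%), RLE scaling 2 (0.567%), and the fit on genes with at least 10 counts in every library 1, Cxcl12 (2.95%). Without brain replicate 1 and without brain replicate 2 there were 7 members called in each fit, at 6.38% and 6.05% of all genes, whereas without dura mater replicate 1 there were 2 (0.703%) and without dura mater replicate 2 there was 1 (0.965%).

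Cxcl10 (chromosome 5, 92346638 to 92348889, minus strand, GRCm38), a ligand of CXCR3 that attracts activated T cells and NK cells, had 0 and 1 counts in the brain EC libraries against 3824 and 2397 in those of dura mater ECs. Every dura mater value stood far above both brain values. Its level was 0.0378 ± 0.0535 CPM for brain against 216 ± 97.8 CPM for dura mater (SD, n = 2). The ratio of the summed counts was 5800-fold, with an exact 95% interval of 1041 to 229123 that covers counting error only. The fitted log2 fold change was 10.26 (SE 1.24, edgeR adjusted p = 0.0282). Without dura mater replicate 1 the adjusted p was 0.262, and over the alternatives it ranged from 2.5e-16 to 0.262. Exons of Art3 on the opposite strand cover 5.91% of the exon length of Cxcl10, and whether reads were counted by strand is not given.

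Cxcl9 and Cxcl11, the other ligands of CXCR3, lie beside Cxcl10 in the genome. Cxcl9 reached 1 count, in dura mater replicate 1. Cxcl11 had 0 counts in both brain libraries against 1 and 194 in dura mater, too few for the test, and an opposite-strand gene covers 41.7% of its exon length. Of these neighbours, neither was counted above 1 in dura mater replicate 1, the library with the higher Cxcl10 count.

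The promoter of Cxcl10 is shown with those of Cxcl1 and Cxcl2, which are neutrophil attractants also encoded on chromosome 5 with higher counts in both dura mater libraries, and that of Cxcl12, which moved the other way. Each run is the 250 bases before the RefSeq transcription start on GRCm38.p6, read 5′ to 3′ on the strand of the gene: Cxcl10 at chr5:92348890-92349139 (minus), Cxcl1 at chr5:90890995-90891244 (plus), Cxcl2 at chr5:90903649-90903898 (plus) and Cxcl12 at chr6:117168285-117168534 (plus). Capitals mark matches, on either strand, to a kappaB motif of NF-kappaB (GGG and TTCC with 3 bases between), an interferon-stimulated response element (GAAA and GAAA with 2 bases between) or an AP-1 motif (TGANTCA, where N is any base), and matches may overlap.
Cxcl10: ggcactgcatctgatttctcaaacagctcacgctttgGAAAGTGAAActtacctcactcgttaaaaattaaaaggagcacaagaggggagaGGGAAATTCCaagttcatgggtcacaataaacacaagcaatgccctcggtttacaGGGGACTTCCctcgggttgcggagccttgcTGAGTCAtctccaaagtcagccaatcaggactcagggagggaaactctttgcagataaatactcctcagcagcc
Cxcl1: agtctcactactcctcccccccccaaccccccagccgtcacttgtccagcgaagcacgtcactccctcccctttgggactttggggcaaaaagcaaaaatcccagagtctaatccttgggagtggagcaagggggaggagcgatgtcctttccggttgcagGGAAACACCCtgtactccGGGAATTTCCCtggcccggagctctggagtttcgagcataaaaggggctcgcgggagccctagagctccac
Cxcl2: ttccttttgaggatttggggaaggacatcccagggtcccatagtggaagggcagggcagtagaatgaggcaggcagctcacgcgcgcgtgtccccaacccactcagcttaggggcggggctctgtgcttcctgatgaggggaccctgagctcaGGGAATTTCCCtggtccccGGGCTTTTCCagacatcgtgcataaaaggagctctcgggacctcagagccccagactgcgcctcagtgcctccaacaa
Cxcl12: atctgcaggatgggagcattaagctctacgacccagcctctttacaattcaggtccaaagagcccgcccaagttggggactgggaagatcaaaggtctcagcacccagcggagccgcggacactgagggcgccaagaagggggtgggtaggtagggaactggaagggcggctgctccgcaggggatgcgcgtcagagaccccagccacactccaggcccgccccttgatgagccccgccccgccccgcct

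The Cxcl10 run held 4 matches. They were 1 interferon-stimulated response element starting 213 bases before the transcription start, 2 kappaB matches starting at 159 and 104 bases, and 1 AP-1 match at 74 bases. The Cxcl1 run held 3 kappaB matches and the Cxcl2 run 3, with a pair of overlapping matches in each around the same letters, GGGAATTTCC. The Cxcl12 run held 0 matches. The same was true of the windows of Ccl21a, Cx3cl1, Il3ra, Il4ra and Il6ra, which lay higher in both dura mater libraries. The window found for Ccl21b held 0 matches too, but it lies apart from the GENCODE position of that symbol. Il13ra2, also higher, held an AP-1 match. Of genes lower in both dura mater libraries, Il1r1 had a window with a kappaB match and Ccl27a a window with an AP-1 match. Among 32851 promoter windows of the same length, 4.65% held the kappaB motif, 2.98% the interferon motif and 6.75% the AP-1 motif. Promoters were found for 25 of the 30 tested members, in 33 windows, of which 5 held kappaB (15.2%, with those of Cxcl1, Cxcl2, Cxcl10, Il17rc and Il1r1), 2 the interferon motif (6.06%, Cxcl10 and Cxcl14) and 5 AP-1 (15.2%). These are matches of letters and do not show that a factor was bound.

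Cxcl1, a ligand of the neutrophil receptor CXCR2, had 2 and 409 counts in the brain EC libraries against 2746 and 2548 in the dura mater EC libraries. Cxcl2, a second ligand of that receptor, had 194 and 1 counts against 1801 and 857. For each of these genes both dura mater values lay above both brain values, but the brain libraries differed widely from each other, and the brain library with counts was replicate 2 for Cxcl1 and replicate 1 for Cxcl2. The log2 fold changes were 3.53 (SE 1.92) for Cxcl1 and 3.77 (SE 2.24) for Cxcl2, with edgeR adjusted p of 0.599 and 0.673. The log2 fold change of Cxcl1 was 9.33 without brain replicate 2 and 2.50 without brain replicate 1. That of Cxcl2 was 8.76 without brain replicate 1 and 2.75 without brain replicate 2. Leaving out the brain library that held nearly all brain counts of a gene had to give a large difference. With all libraries and the newer dispersion estimate the adjusted p of Cxcl1 was 0.0383. The adjusted p ranged up to 0.799 for Cxcl1 and 1.00 for Cxcl2 over the alternatives. Cxcl3 and Cxcl5, also ligands of CXCR2, had at most 2 counts in any library, and Cxcl15 had 0. The 11 immediate-early genes were higher without overlap in the same dura mater libraries, 5 of them past the threshold, and their part in the levels of Cxcl1, Cxcl2 and Cxcl10 was not tested.

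Cxcl12 (chromosome 6, 117168535 to 117181367, plus strand), the ligand of CXCR4 that retains blood stem cells in marrow and guides vessel growth, had 133400 and 89861 counts in the brain EC libraries against 23480 and 27762 in the dura mater EC libraries. Both brain values exceeded both dura mater values, and the dura mater replicates lay close together. Its level fell from 7998 ± 1704 to 1726 ± 35.6 CPM (SD, n = 2), and the fitted log2 fold change was −2.21 (SE 0.27, edgeR adjusted p = 0.0286). Without dura mater replicate 2 the adjusted p was 0.0841, and the log2 fold change stayed between −2.48 and −2.02 over the alternatives. Cxcl12 made up most of the summed chemokine level in each library: all chemokine entries summed to 9343 and 7009 CPM in the brain libraries against 2902 and 2769, and without Cxcl12 the order turned, with 140 and 216 CPM against 1152 and 1069. The receptors of this ligand stood on opposite sides. Cxcr4, its signalling receptor, had 0 and 1 counts in the brain EC libraries against 487 and 368 in the dura mater EC libraries, and Ackr3, the scavenger that clears CXCL12, had 4501 and 1928 counts against 589 and 1238. Neither passed in the edgeR test on all libraries (adjusted p 0.466 for each, log2 fold changes 7.39 and −1.93). DESeq2 called Cxcr4, and of the other fits Ackr3 was called in the one without brain replicate 2.

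Cx3cl1, the membrane-bound ligand of CX3CR1 on monocytes and microglia, was counted in all libraries, with 878 and 1362 counts in brain against 2683 and 4241 in dura mater. Its level was 81.8 ± 30.0 CPM against 230 ± 42.2 CPM (SD, n = 2), without overlap. The log2 fold change was 1.49 (SE 0.60), and it did not pass (edgeR adjusted p 0.466, from 0.125 to 0.809 over the alternatives). Cxcl16, which is also membrane-bound, had 3 and 10 counts against 12 and 123, and an opposite-strand gene covers 18.3% of its exon length. Cxcl14 had 0 and 24 counts against 277 and 0, so its replicates disagreed within each tissue.

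**Figure D2:**
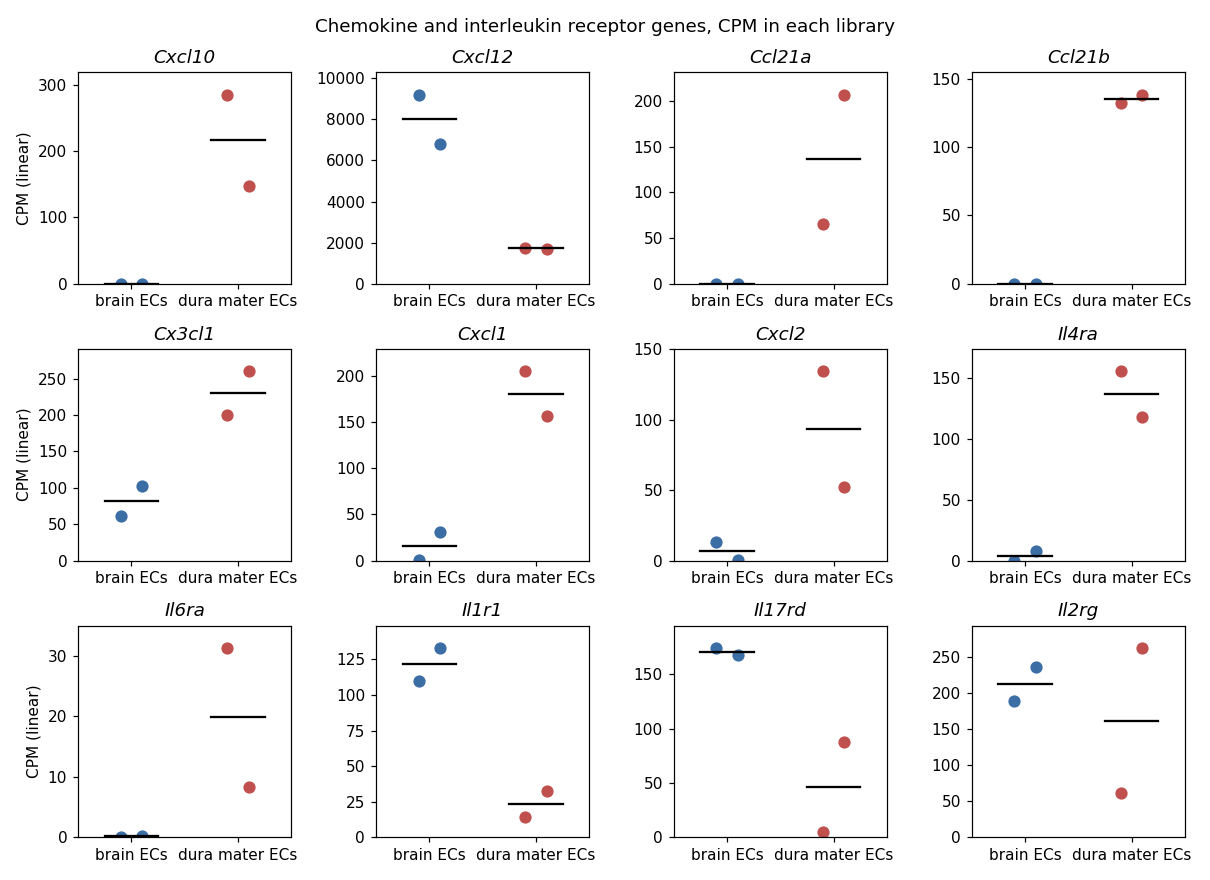
CPM on a linear axis from 0 for 12 members in the 2 brain EC libraries (blue) and the 2 dura mater EC libraries (red), with replicate 1 on the left of each pair and black lines at the group means. Cxcl10, Ccl21a and Ccl21b sit at or near 0 in brain ECs, Cxcl12 and Il1r1 are higher in both brain libraries, and the dura mater replicates of Il17rd and Il2rg lie far apart.

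Among the CC chemokines, the Ccl21 genes stood out by their counts. CCL21 binds CCR7 and draws dendritic cells and naive T cells towards lymphatic vessels and lymph nodes. Ccl21a had 0 counts in both brain libraries against 883 and 3378 in dura mater. Ccl21b had 0 and 0 against 1775 and 2261, and Ccl21c had 0 and 0 against 632 and 757. No brain library held a count of any of these symbols, while each dura mater library held counts of all of them, summing to 245 and 392 CPM. The mean dura mater level over a floor of 3 counts per brain library was 629-fold for Ccl21a, 624-fold for Ccl21b and 216-fold for Ccl21c. That floor covers counting error only and not the spread between libraries. For Ccl21a the ratio was 304-fold without dura mater replicate 2 and 954-fold without replicate 1. In edgeR the Ccl21 genes did not pass (adjusted p 0.0894, 0.0688 and 0.389). Over the alternatives the adjusted p ranged from 4.6e-09 to 0.647 for Ccl21a, from 1.8e-09 to 0.229 for Ccl21b and from 0.00036 to 0.794 for Ccl21c. The lowest value for Ccl21a came from the fit without brain replicate 2. An adjusted p without a brain library tells nothing further about the tissues, since both brain libraries held 0 counts of these genes. Without dura mater replicate 1 it was 0.0258 for Ccl21a and 0.229 for Ccl21b, and without dura mater replicate 2 it was 0.647 and 0.165.

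The Ccl21 copies are uncertain as single genes. Of the runs of 50 bases in annotated Ccl21b transcripts, 71.7% also occur in those of Ccl21a, and 16.4% do so within the last 500 bases, where these libraries read. Reads from shared runs may be split between the copies, and no position is given for them. Lymphatic endothelial markers were counted alongside: Lyve1 had 0 counts in both brain libraries against 911 and 1776 in dura mater, Mmrn1 had 0 and 0 against 1132 and 690, and Prox1, the transcription factor that defines lymphatic ECs, had 0 and 0 against 492 and 125. Flt4 was counted in all libraries, with at least 1777 counts, while Pdpn had at most 45 counts and Reln 502 in dura mater replicate 2 but 0 in replicate 1. The part of these cells in the Ccl21 counts was not tested. Ccl19, the other ligand of CCR7, had 94 counts in dura mater replicate 2 and 0 in the other libraries.

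Of the remaining CC chemokines, Ccl27a and Ccl5 were counted in all libraries at 45 or more. Ccl27a, a skin-homing ligand of CCR10, had 791 and 901 counts in the brain EC libraries against 382 and 444 in the dura mater EC libraries (log2 fold change −1.14, SE 1.4, edgeR adjusted p 1.00), and the groups did not overlap. Its near copy Ccl27b shares 61.4% of its runs of 50 bases with Ccl27a, near the transcript end as well as over the whole, and had at most 65 counts. Ccl5, a T cell and monocyte attractant, had 52 and 102 counts against 94 and 45. Ccl8 had 283 counts in dura mater replicate 1 but 0 in replicate 2, and Ccl11, the eosinophil attractant eotaxin, had 64 in replicate 2 but 0 in replicate 1. Ccl2, the monocyte attractant also called MCP-1, had 11 and 4 counts in the brain EC libraries against 0 and 5 in the dura mater EC libraries.

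**Figure D3:**
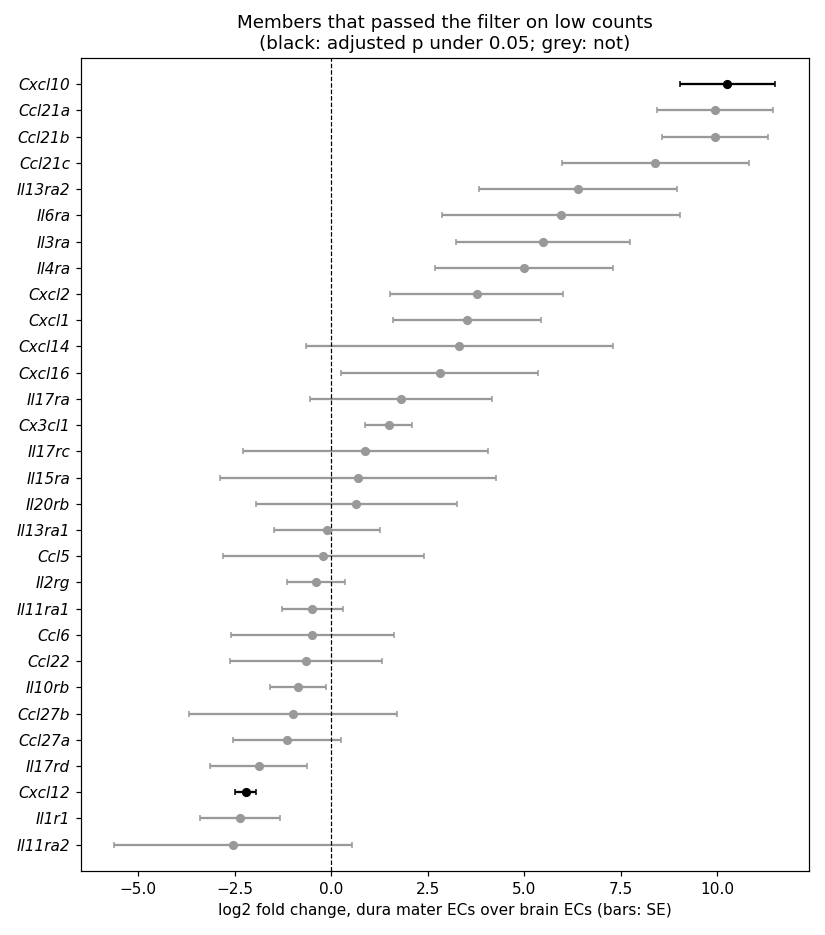
Log2 fold change of dura mater ECs over brain ECs for the 30 tested members, with bars for the SE, black where the edgeR adjusted p was under 0.05 and grey otherwise. Cxcl10 at 10.26 and Cxcl12 at −2.21 are the black points, and Ccl27a, Cxcl14 and Il15ra are among those whose SE exceeds the change itself.

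Of the 15 interleukin receptor entries tested, 0 passed in edgeR, where 0.610% of all genes tested passed. An unadjusted p under 0.05 was found for 0, against 7.04% of all genes as higher and 2.97% as lower. Il4ra was the entry that DESeq2 called, where it called 9.02% of all genes. The summed level of all receptor entries was 844 and 974 CPM in brain against 706 and 904 CPM in dura mater, so the groups overlapped. Both dura mater libraries lay above both brain libraries for Il13ra2, Il3ra, Il4ra, Il6ra and Il17ra, and below for Il1r1, Il10rb and Il17rd. Over all genes tested, 26.2% lay above and 16.9% below.

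Among receptors of the IL-4 and IL-13 class, Il4ra, the subunit common to both cytokines, had 0 and 109 counts in the brain EC libraries against 2079 and 1922 in the dura mater EC libraries. Its level was 4.12 ± 5.83 CPM against 136 ± 26.4 CPM (SD, n = 2), and dura mater replicates were close while 1 brain library held none. The log2 fold change was 5.0 (SE 2.30, edgeR adjusted p 0.491). Among fits on all libraries Il4ra passed in DESeq2, without a filter and with the newer dispersion estimate. It did not pass with RLE scaling, the replicate block or a prior count of 0.5, nor without either dura mater library. The log2 fold change was 9.96 without brain replicate 2. Without brain replicate 1 the log2 fold change was 3.98. Brain replicate 2 held all of the brain counts of Il4ra, so leaving that library out had to give a large difference. An opposite-strand gene covers 9.51% of its exon length. Il13ra1, which pairs with it, had 1100 and 328 counts in the brain EC libraries against 659 and 721 in the dura mater EC libraries, with overlapping groups. Il13ra2, a decoy receptor for IL-13, had 0 and 0 counts against 153 and 191, at least 53.3-fold higher (edgeR adjusted p 0.466). Il3ra, which binds IL-3, had 0 and 0 counts against 122 and 52, at least 28.3-fold higher (edgeR adjusted p 0.466), with the bound at 14.7-fold without dura mater replicate 1 and 41.9-fold without replicate 2.

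Il2rg, the common gamma chain of the IL-2 receptor class, had 2737 and 3120 counts in the brain EC libraries against 825 and 4283 in the dura mater EC libraries. The groups overlapped because the dura mater replicates stood on either side of the brain values, and a same-strand transcript covers 30.5% of its exon length. Of the subunits that pair with it besides Il4ra, which is given above, Il2ra had at most 1 count, Il21r at most 3, and Il2rb and Il9r had 0. Il7r had 75 counts in dura mater replicate 2 and at most 6 elsewhere. Il15ra had 123 and 1 counts in brain ECs against 0 and 230.

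Il6ra, which makes a cell directly sensitive to IL-6, had 1 and 4 counts in the brain EC libraries against 419 and 137 in the dura mater EC libraries, without overlap. The log2 fold change was 5.94 (SE 3.08, edgeR adjusted p 0.567, from 0.175 to 1.00 over the alternatives). Il6st, which encodes the shared signalling subunit gp130, had 600 and 344 counts against 4963 and 6308 (log2 fold change 3.48, SE 0.55, edgeR adjusted p 0.0688). Il6 itself had 0 and 1 counts in brain against 842 and 123 in dura mater (edgeR adjusted p 0.466). Socs3, an inhibitor induced by this pathway, had 3607 and 1056 counts against 53080 and 43201 (log2 fold change 4.33, SE 0.63, edgeR adjusted p 0.0544). Each of these genes had both dura mater libraries above both brain libraries, as did 26.2% of all genes tested. None passed in the edgeR test on all libraries. Il6 and Il6ra, with at most 4 counts in a brain library, passed the filter on low counts through their dura mater counts alone. Il6st and Socs3 were called in DESeq2, in the edgeR fits without a filter, with at least 10 counts in every library, with the newer dispersion estimate and with the replicate block, and without either brain library, and Socs3 also without either dura mater library. Il6 was called in DESeq2 alone among the fits run. Il11ra1, the IL-11 receptor, had 1058 and 2187 counts in the brain EC libraries against 1187 and 1332 in the dura mater EC libraries. Its near copy Il11ra2 had 475 and 11 against 9 and 80. Of the runs of 50 bases of Il11ra2, 59.3% occur in Il11ra1 over whole transcripts and 19.7% within the last 500 bases, so reads from these may be split.

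Il1r1, the signalling receptor for IL-1, had 1596 and 1757 counts in the brain EC libraries against 192 and 533 in the dura mater EC libraries. Its level was 121 ± 16.1 CPM against 23.5 ± 13.0 CPM (SD, n = 2), with both brain values above both dura mater values. The log2 fold change was −2.36 (SE 1.04, edgeR adjusted p 0.470, from 0.213 to 0.922 over the alternatives). Its partner Il1rap had 61 and 0 counts in the brain EC libraries against 0 and 1 in the dura mater EC libraries, and the decoy Il1r2 and the antagonist gene Il1rn had at most 1 and 8 counts. The IL-33 receptor gene Il1rl1 and the IL-18 receptor gene Il18r1 had 0 counts in every library, although Il18rap had 141 in dura mater replicate 2. Among the IL-1 receptor kinases, Irak4 had 0 and 0 counts against 639 and 384, and Irak1 had 2771 and 3188 against 1078 and 1683 (edgeR adjusted p 0.466 and 0.490).

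The IL-17 receptor class had 3 tested members. Il17rd, an atypical member that also restrains FGF signalling, had 2524 and 2219 counts in the brain EC libraries against 68 and 1435 in the dura mater EC libraries (log2 fold change −1.88, SE 1.26, edgeR adjusted p 0.771). Both dura mater values lay below the brain values but differed widely from each other. Il17ra, the common subunit, had 851 and 0 counts against 1853 and 1142, and did not pass in edgeR on all libraries (log2 fold change 1.82, SE 2.35). Without brain replicate 1, which held all of its brain counts, the log2 fold change was 9.55, and without brain replicate 2 it was 0.77. Il17rc, its partner for IL-17A, had 0 and 294 counts against 286 and 328. In the IL-10 class, Il10rb, a subunit that IL-10, IL-22 and type III interferons share, had 1701 and 1968 counts against 847 and 1370 (log2 fold change −0.85, SE 0.73, edgeR adjusted p 0.921), and a same-strand transcript covers 14.9% of its exon length. Il10ra had at most 1 count. Il20rb had 0 and 875 counts in the brain EC libraries against 758 and 777 in the dura mater EC libraries. Without brain replicate 2, which held all of its brain counts, its log2 fold change was 8.57, and without brain replicate 1 it was −0.39. For Il17ra and Il20rb, a fit that keeps only the brain library at 0 had to give a large difference.

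**Figure D4:**
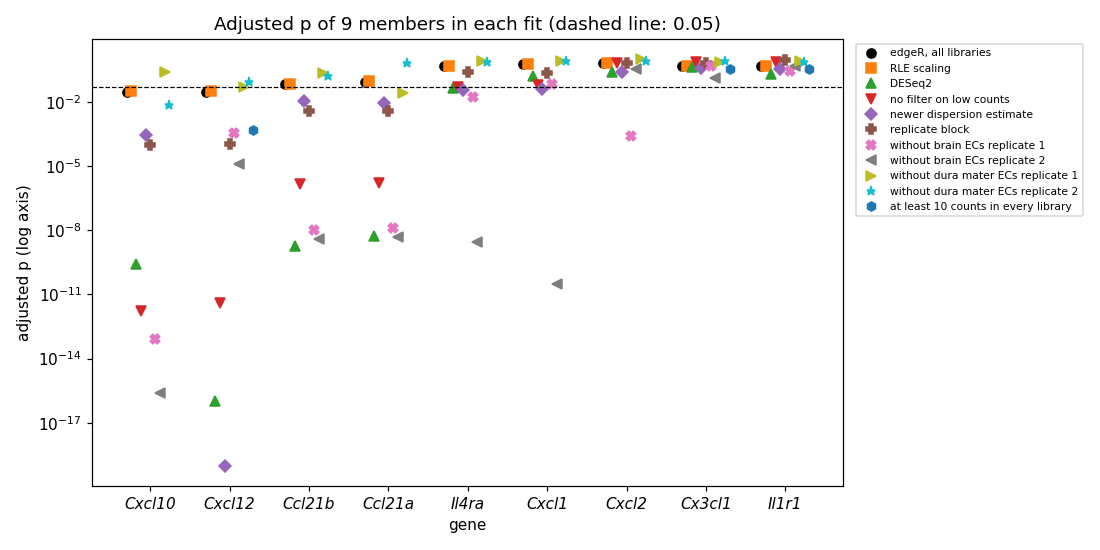
Adjusted p, on a log axis, of 9 members in the edgeR test on all libraries (black) and in each alternative fit, with a dashed line at 0.05. Cxcl10 and Cxcl12 lie below the line in nearly all fits, the Ccl21 copies on both sides of it, and Cx3cl1 and Il1r1 above it in each fit.

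Of 107 further genes of these pathways, 43 were tested and 0 passed in edgeR, where 0.610% of all genes passed. An unadjusted p under 0.05 was found for 8 higher and 1 lower, against 7.04% and 2.97% of all genes tested. DESeq2 called 8 (Cish, Cxcr4, Il6, Il6st, Irak4, Socs1, Socs3 and Stat2), against 9.02% of all genes. Among 23 chemokine receptors 5 were tested, among 42 interleukin ligands 3, among 10 partner subunits and modulators 7, among 19 JAK kinases, STAT factors and SOCS inhibitors 17, among 10 IL-1 receptor adaptors and kinases 10, and among 3 chemokines under other symbols 1. The median log2 fold change was −1.43 for the chemokine receptors, 2.61 for the interleukin ligands, 0.55 for the partner subunits, 0.87 for the JAK, STAT and SOCS genes and 0.53 for the IL-1 receptor adaptors and kinases. Besides the genes given above, Stat2, which acts in the interferon response, had 0 and 2 counts in the brain EC libraries against 1546 and 905 in the dura mater EC libraries (edgeR adjusted p 0.271). Il15 had 334 and 237 against 997 and 891, Lifr, the receptor for LIF that pairs with gp130, had 806 and 501 against 1805 and 2370 (edgeR adjusted p 0.946 and 0.542), and Ppbp, a platelet chemokine, had 275 and 0 against 0 and 190.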

How the data were processed

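QuantSeq 3′ libraries were made from sorted ECs, 2 for each tissue, and count reads near transcript ends. The authors deposited raw counts per gene symbol, 1 table per library. Their methods name TopHat and cufflinks, and the submitters' processing notes name Bowtie2, edgeR and mm10; the step that gave counts, the annotation, the use of strand and of molecular identifiers are not given in the sources used here. Groups and replicate numbers came from the sample titles.

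The main test was edgeR 4.0.16 (quasi-likelihood, older dispersion estimate, R 4.3.3) with TMM scaling and genes kept by filterByExpr. The model held tissue alone, and p-values were adjusted over all 9347 tested genes by Benjamini-Hochberg; cufflinks, which needs alignments, was not run. Adjusted p under 0.05 was called. Log2 fold changes used a prior count of 2, and their SE is the change divided by the square root of F. Alternatives were DESeq2 1.42.0 on the same genes, RLE scaling, no filter, at least 10 counts in every library, the newer edgeR dispersion, a replicate block, a prior count of 0.5, and leaving out each library. A single library left in a tissue was assumed to vary like the others. Scripts were tested on simulated data. Of all symbols, 35 stood on more than 1 line (79 lines), each tested as its own gene.

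Every member was accounted for; those past the threshold or with at least 64 counts in a library were named, and from each further list the genes past the threshold or else the 2 with the smallest p. Members shown in the promoter comparison, and those named among the members with fewer counts, were chosen after their values were seen. The members and lists were chosen with earlier results of these data known. Positions and transcripts are from GENCODE M21 (GRCm38, the build also called mm10), promoters from RefSeq (GRCm38.p6).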

Additional observations from a re-analysis of the deposited data

How the results depend on the processing

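Cxcl10 and Cxcl12 were the members called with RLE scaling and with a prior count of 0.5, as in the main test. Members called higher numbered 5 in DESeq2 and with the newer dispersion estimate, 4 without a filter, 3 with the replicate block, 0 with at least 10 counts in every library, which leaves 10 members and drops Cxcl10, and 1 to 6 with a library left out. Members called lower numbered 0 to 1 with a library left out. Over all genes the 57 calls became 810 in DESeq2, 326 without a filter, 141 with at least 10 counts, 306 with the newer dispersion estimate, 224 with the replicate block and 80 to 740 with a library left out. Calls among the further pathway genes were 0 in edgeR, 8 in DESeq2, 3 without a filter and with at least 10 counts, 2 with the newer dispersion estimate and with the replicate block, and 1 to 6 with a library left out. The cause of these shifts was not tested.

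Libraries with the same number did not deviate together (r = −0.0208 over genes), and no label states that they share mice. The block called Ccl21a and Ccl21b besides Cxcl10 and Cxcl12, and it turned the log2 fold change of Il13ra1 from −0.11 to 0.10. Leaving out a library turned the sign for 10 of the tested members with at least 64 counts in a library. Their log2 fold changes ranged from −3.47 to 2.45 for Ccl27b, −1.14 to 0.39 for Ccl5, −2.99 to 6.29 for Cxcl14, −0.76 to 0.86 for Il13ra1, −4.93 to 5.0 for Il15ra, −1.80 to 0.16 for Il2rg, −1.0 to 0.16 for Il11ra1, −4.39 to 1.52 for Il11ra2, −0.39 to 8.57 for Il20rb and −0.15 to 7.25 for Il17rc. The signs of Ccl6 and Ccl22, tested with fewer counts, were not followed across these fits. The common biological coefficient of variation was 1.39 with 2 libraries per tissue; the part of sequencing depth in replicate disagreement was not tested.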
